A study of Arabidopsis thaliana with 12 samples.

Results

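Wild-type Arabidopsis thaliana seedlings of the Col-0 ecotype, harvested whole at 7 days, are described here by their transcripts alone. Every library labelled wild type was used, which made 3 of the 12 libraries of the series, and each listed 27436 genes. The labels give no mutant allele and no treatment for these plants, which grew on 1/2 MS medium containing 1% sucrose. Strand-specific mRNA libraries were made from small batches of seedlings, and the number of plants behind a library is not given in the sources used here. The other libraries came from pnet2_ac, pnet2_bc and pnet2_abc mutants, named for PNET2 genes, a plant family of nuclear membrane proteins; they share the age, the tissue and the Col-0 ecotype, and the labels do not name their alleles. The pnet2_ac and pnet2_bc libraries are used below only as further sets of 3 in which the spread between libraries can be read. With 1 group there is no contrast, so the values are descriptions with no test. A whole seedling mixes cotyledons, young leaves, hypocotyl and root, so fewer cells of a type and less RNA per cell cannot be told apart.

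A green seedling lives mainly on its own photosynthesis once its seed reserves are used. Light is caught by chlorophyll a/b-binding antenna proteins (LHCA around photosystem I, LHCB around photosystem II), and electrons pass from photosystem II through a transport chain to photosystem I. The energy drives carbon fixation by Rubisco in the Calvin cycle. The large subunit of Rubisco is encoded in the chloroplast and the small subunit (RBCS) by a few nuclear genes, and the antenna proteins and many photosystem subunits are also encoded in the nucleus, so an mRNA library shows them directly.

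The 3 libraries held 79283837, 71779655 and 79237363 counts, and 23115 to 23610 genes per library had at least 1 count. Over 18990 genes averaging 1 CPM or more (counts per 1000000, on library sizes adjusted by the TMM method), log2 levels correlated across genes at 0.984, 0.982 and 0.985 for the 3 pairs of libraries. Genes are not independent replicates, so these are descriptions. The libraries differed by more than sampling noise, with a chi-square per degree of freedom of 32.7 to 47.5, and none was counted as a repeat of another. Low counts fell unevenly: of the values from 1 to 40, 39.1% to 40.96% were multiples of 4, where even spacing would give 25%. The source of that pattern was not tested, and errors that treat each count as an independent read are lower bounds.

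A small number of genes held much of the transcript pool. Levels between genes are given in TPM, which divides by transcript length and sums to 1000000 per library. The 10 most abundant genes held 9.25% ± 0.397 of the pool (SD, n = 3), the 100 most abundant 26.7% ± 0.694 and the 1000 most abundant 57.5% ± 0.783. It took 619.7 ± 34.2 genes to reach 50% of the pool and 7344 ± 130.4 to reach 90%. Genes averaging 1000 TPM or more numbered 103 and carried 26.9% of the pool, 1518 genes between 100 and 1000 TPM carried 38.2%, and 9944 genes between 10 and 100 TPM carried 31.004%. The 7957 genes between 1 and 10 TPM carried only 3.68%.

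**Figure D1:**
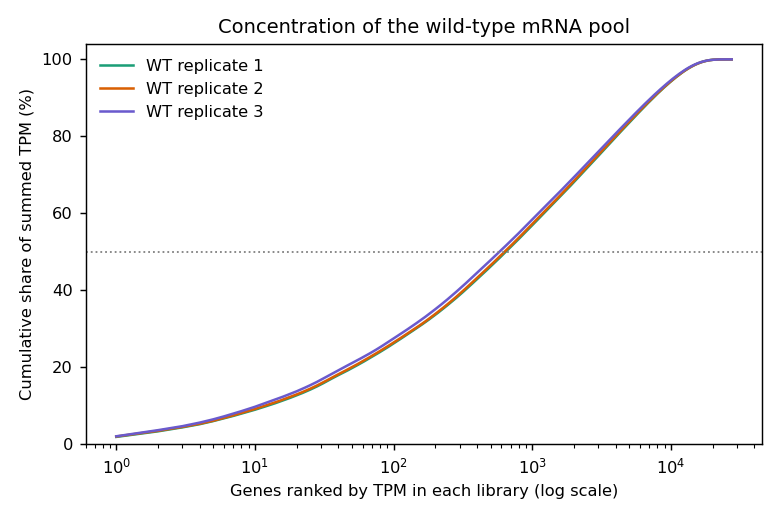
Cumulative share of summed TPM (%) against the rank of the gene on a log axis, 1 line per wild-type library. The 3 lines run close together and cross 50% at 581 to 646 genes.

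RBCS1A, 1 of 4 nuclear genes for the Rubisco small subunit, was the most abundant transcript. Its level was 18746, 19783 and 20307 TPM in replicates 1, 2 and 3, a mean of 19612 ± 794 TPM or 1.96% of the pool. The gene lies on chromosome 1 at 25048158-25049667 (TAIR10.1, minus strand). The other 3 genes lie close together on chromosome 5, also on the minus strand. RBCS3B (15376988-15378642) was at 10317, 10254 and 10398 TPM, and RBCS2B (15380907-15382071) was at 5923, 6191 and 6386 TPM. RBCS1B (15383167-15385320) was the lowest and the least even, at 1914, 2050.0 and 1019 TPM. Replicate 3 was the lowest library for RBCS1B and the highest for RBCS1A, RBCS3B and RBCS2B. The 4 genes together held 3.69%, 3.83% and 3.81% of the pool.

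The copies on chromosome 5 are close in sequence, which bears on how well their counts can be separated. The coding sequences of RBCS3B and RBCS1B share 529 and 531 of 546 bases with RBCS2B, and that of RBCS1A, which has 543 bases, shares 492. The end of each coding sequence, with its stop codon, is shown from RefSeq TAIR10.1 so that the copies can be compared, and capitals mark where a copy differs from RBCS2B:
RBCS2B: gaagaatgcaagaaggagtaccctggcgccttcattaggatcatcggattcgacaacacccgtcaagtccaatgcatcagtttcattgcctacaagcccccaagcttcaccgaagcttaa
RBCS3B: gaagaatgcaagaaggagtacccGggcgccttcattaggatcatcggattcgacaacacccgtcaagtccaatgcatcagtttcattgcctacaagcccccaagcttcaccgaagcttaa
RBCS1B: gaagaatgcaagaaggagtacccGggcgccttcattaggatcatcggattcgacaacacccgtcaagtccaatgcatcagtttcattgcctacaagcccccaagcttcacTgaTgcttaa
RBCS1A: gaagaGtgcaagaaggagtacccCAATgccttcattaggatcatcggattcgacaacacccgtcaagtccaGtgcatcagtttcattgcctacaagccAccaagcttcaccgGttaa
In this stretch RBCS3B differs from RBCS2B at 1 base, RBCS1B at 3 and RBCS1A at 8, and RBCS1A also lacks 3 bases. How reads matching several copies were assigned is not given in the sources used here, so the levels of RBCS3B, RBCS2B and RBCS1B are uncertain as single genes. Length matters as well. TPM divides RBCS1B by 1894 bases, the length of its longest annotated transcript, and RBCS2B by 935, so the gap between them is wider in TPM than in counts (184981 against 275768 in replicate 2).

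Antenna genes came next. CAB1, a chlorophyll a/b-binding protein of the photosystem II antenna, was at 14511, 14712 and 15929.6 TPM. Its neighbours on chromosome 1, CAB2 and CAB3, averaged 6583 ± 488 TPM and 4431 ± 372 TPM. CAB3 lies at 10472280-10473502 and CAB2 at 10474656-10475969 on the minus strand, and CAB1 at 10477885-10479114 on the plus strand (TAIR10.1). CAB2 matched CAB1 at 96.1% identity over 823 bases and CAB3 matched it at 96.1% over 836, so the split between these copies is uncertain. LHB1B2, another antenna gene of photosystem II, was at 8284, 8198 and 9293 TPM, highest in replicate 3, and all 1045 bases of its transcript lie opposite another annotated gene.

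The minor antenna genes LHCB5 and LHCB6 averaged 5076 ± 213 TPM and 3918 ± 152 TPM, and LHCB3, of the main trimeric antenna, averaged 5073 ± 352 TPM. On the photosystem I side, LHCA4 averaged 5377 ± 389 TPM, LHCA1 3925 ± 220.1 TPM and LHCA3 3111 ± 151 TPM. The 27 antenna genes summed to 7.68%, 7.71% and 8.38% of the pool, with replicate 3 above the other two. NPQ4, which encodes the PsbS protein of photoprotective energy dissipation, is counted among these 27 genes by name. At 1599 ± 44.3 TPM it was lower than each antenna gene named above. Others of the 27, such as LHB1B1 at 1004 ± 75.3 TPM, were lower still.

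Subunits of the photosystems filled most of the remaining top places. PSBR, a small subunit of photosystem II, was at 7414, 7793 and 8438 TPM, highest in replicate 3. PSBO1 and PSBP-1, extrinsic proteins of the water-splitting complex, averaged 3678 ± 97.99 TPM and 3249 ± 135 TPM. In photosystem I, PSAK averaged 4155 ± 162 TPM, PSAE-1 3091 ± 126 TPM, PSAG 3071.9 ± 88.7 TPM and PSAO 2924 ± 95.8 TPM. DRT112, a plastocyanin that carries electrons to photosystem I, averaged 3393 ± 35.96 TPM. These photosystem genes lay within a narrow band of levels, apart from PSBR. LHCB6, PSAE-1 and PSAG have 358, 436 and 479 bases opposite another annotated gene, and whether the counting used the strand is not given in the sources used here.

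RCA, the activase that frees Rubisco of inhibitory sugar phosphates, was at 8019, 7570.0 and 7827 TPM. FBA2, a plastid aldolase, and GAPA, a subunit of the plastid glyceraldehyde 3-phosphate dehydrogenase, averaged 2829 ± 105 TPM and 2606 ± 95.3 TPM. Of the 30 most abundant genes, 29 belonged to the 7 photosynthesis families described here, and together the 30 held 16.01% of the pool. The exception was MT2B, a metallothionein, which is a small cysteine-rich metal-binding protein, at 3383, 3854 and 3685 TPM and rank 17.

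**Figure D2:**
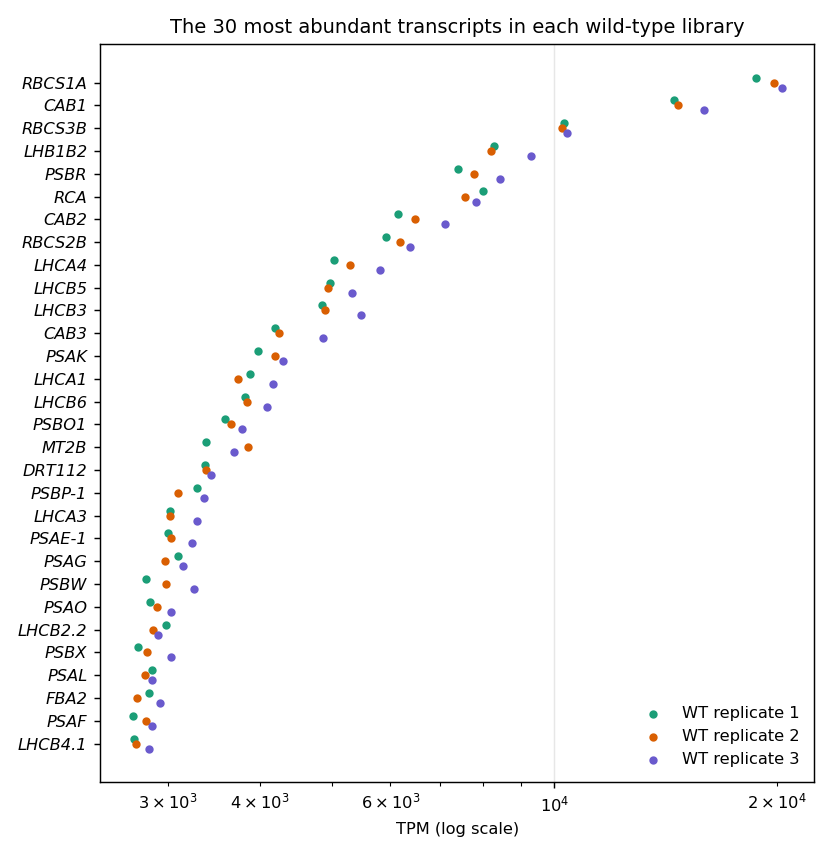
TPM on a log axis for the 30 genes with the highest mean in wild type, 1 point per library. The 3 points of a gene lie close together against the 7.13-fold range from RBCS1A to LHCB4.1.

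The 30 genes were even between libraries. Their coefficients of variation (CV, the SD over the mean, on CPM) ran from 2.22% to 10.6% with a median of 6.10%, and 29 of them were in the top 30 of every library. RBCS1A, CAB1 and RBCS3B were each above the next gene in every library, with no overlap of values. LHCB5 and LHCB3 overlapped, at 4966, 4941 and 5321 TPM and 4846, 4894 and 5478 TPM. PSAE-1 and PSAG overlapped too, at 3006, 3031 and 3235 TPM and 3095, 2974 and 3147 TPM, so neighbours this far down had no firm order. Ranked by counts, which favour long transcripts, 21 of the 30 stayed in the top 30, while PSBX (720 bases) stood at rank 71 and MT2B (571 bases) at rank 70.

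By family, ribosomal proteins held the largest share, 10.2%, 10.4% and 10.9% of the pool in replicates 1, 2 and 3, spread over 364 genes of the cytosol and the organelles. As a share of counts, which favour long transcripts, ribosomal proteins held 6.73% and the antenna 6.597%. No single ribosomal gene dominated. SSR16, annotated as small subunit ribosomal protein 16, led at 1932 ± 145 TPM, which is 1.84% of the family. It was followed by the L14 gene AT4G27090 at 1294 ± 51.3 TPM and PSRP5, a plastid-specific ribosomal protein, at 1288 ± 90.3 TPM. Nuclear genes of the photosystems, electron transport and plastid ATP synthase held 7.95% ± 0.201 in 63 genes, and the antenna 7.92% ± 0.394 in 27. The Rubisco small subunit held 3.78% ± 0.0752 in 4 genes and the Calvin cycle with RCA 2.59% ± 0.0411 in 18.

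With carbonic anhydrase (0.312%), photorespiration (1.29%) and chlorophyll synthesis (0.756%), the 7 photosynthesis families summed to 24.1%, 24.3% and 25.4%, or 24.6% ± 0.682, from 164 genes. Photosynthesis and ribosomal proteins together came to 35.1% ± 1.01 of the pool from 528 of the 27436 listed genes. Replicate 3 had the highest share for both.

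The families differed in how evenly their share was split among members. In the Rubisco small subunit family the first gene held 51.9%, and among the metallothioneins MT2B held 64.8%. In the antenna CAB1 held 18.999% and in the photosystem group PSBR held 9.92%. Photorespiration, which recycles the product of Rubisco's reaction with oxygen, was led by a peroxisomal glutamate:glyoxylate aminotransferase (GGT1, AT1G23310) at 1895 ± 52.8 TPM. SHM1, the mitochondrial serine hydroxymethyltransferase, averaged 1484 ± 17.6 TPM, and the glycolate oxidase gene GOX1 1475 ± 37.96 TPM. Chlorophyll synthesis was led by CRD1, a subunit of the cyclase that forms its isocyclic ring, at 2058 ± 70.3 TPM, by AT1G74470 at 1315 ± 56.6 TPM, and by GUN5, the H subunit of magnesium chelatase, at 890.2 ± 25.4 TPM.

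Families of protein folding, translation and respiration followed. Heat shock proteins and chaperones held 1.93% ± 0.0187 in 287 genes, led by HSC70-1, a constitutive cytosolic HSP70, at 1391 ± 20.1 TPM, CPN20, a plastid co-chaperonin, at 1144 ± 5.48 TPM, and ROC4, a plastid peptidyl-prolyl isomerase, at 1138 ± 88.2 TPM. Translation factors held 1.37% ± 0.0239 in 110. The highest gene, TCTP at 1777 ± 101 TPM, is the translationally controlled tumor protein. It was assigned to this family by name only and makes up 12.9% of its share. Next were the elongation factor 1-alpha gene AT5G60390 at 1064 ± 34.005 TPM and FBR12, an eIF5A, at 1031 ± 33.6 TPM. Nuclear genes of the respiratory chain and mitochondrial ATP synthase held 1.16% ± 0.0288. The highest gene assigned to this family was AAC1, the mitochondrial ADP/ATP carrier, a transporter rather than a subunit of these complexes. It was uneven at 929.5, 634 and 910.0 TPM, low in replicate 2.

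Wall and surface proteins took less. Arabinogalactan, extensin and proline-rich proteins held 0.782% ± 0.0299 in 206 genes, led by EXT3 at 569 ± 59.98 TPM, AT4G16980 at 536 ± 22.3 TPM and AGP21 at 453 ± 8.50 TPM. Lipid transfer proteins, many of which are secreted to the plant surface, held 0.730% ± 0.0293 in 94, and 59 genes of glucosinolate synthesis and breakdown held 0.616% ± 0.0569. Glucosinolates are the sulfur-containing defence compounds of this plant family. The shares of the wall proteins and the lipid transfer proteins overlapped between libraries.

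Aquaporins, water channels of the plasma membrane (PIP) and the vacuole (TIP), held 1.05%, 0.974% and 0.823%, lowest in replicate 3. PIP1B and TIP2 averaged 1415 ± 109 TPM and 1371 ± 77.6 TPM. PIP2A was less even, at 1702, 1598 and 908 TPM, and PIP3 was at 842, 752 and 518 TPM, both lowest in replicate 3. Not every member went this way: PIP2E was at 150, 224 and 241 TPM, highest in replicate 3. Class III peroxidases, secreted wall enzymes, also had their lowest share there, at 0.192%, 0.190% and 0.149%.

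Organelle genes took little of the pool in these mRNA libraries. The 133 listed chloroplast genes held 0.120% ± 0.0109 and the 130 mitochondrial genes 0.0101% ± 0.00144. Organelle transcripts mostly lack the poly(A) tails that mRNA libraries commonly select, so these shares do not measure organelle expression. By gene type, 24388 protein-coding nuclear genes held 98.97% of the pool and 1868 long non-coding RNA genes 0.297%. The 35 families covered 48.1% ± 0.689 of the pool. Outside them the leaders were GS2, the plastid glutamine synthetase, at 1562 ± 92.2 TPM, FSD1, an iron superoxide dismutase, at 1286, 2031 and 1258 TPM, NDPK1, a nucleoside diphosphate kinase, at 1523 ± 135 TPM, and THI1 of thiamine synthesis at 1445 ± 49.4 TPM. Of these, FSD1 was the uneven one, high in replicate 2.

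**Figure D3:**
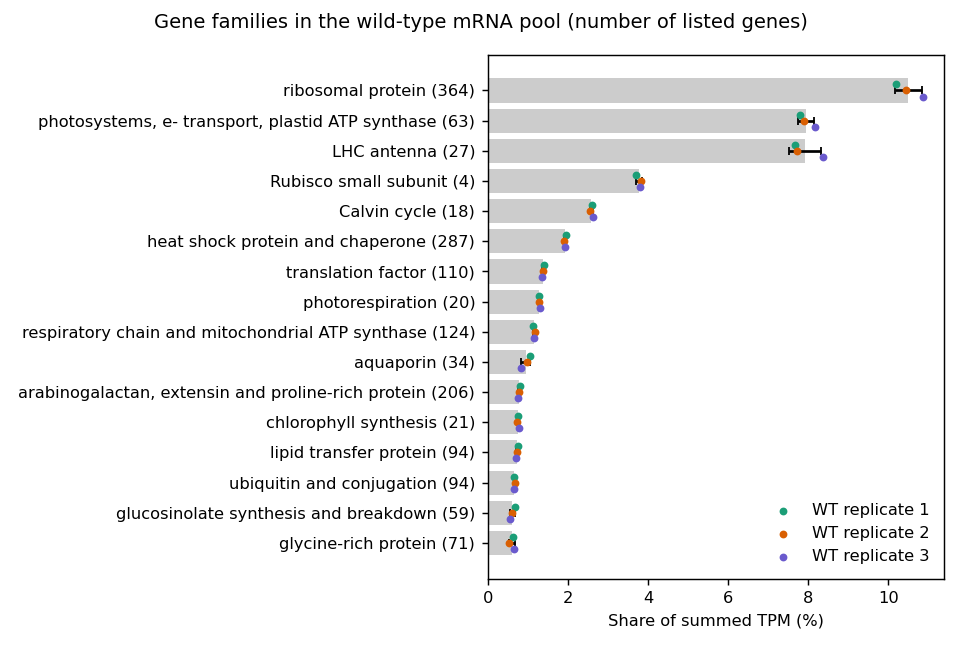
Share of summed TPM (%) for the 16 largest of the 35 families. Bars are means, error bars are SD over the 3 wild-type libraries, points are the libraries, and the number of listed genes stands in parentheses. Ribosomal proteins (10.5%), the photosystem group (7.95%) and the antenna (7.92%) stand above the rest in every library.

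Upstream sequence is shown for 3 abundant genes because short elements named for light-regulated and ribosomal protein genes can be read in it. The G-box (CACGTG) and the I-box core (GATAAG) are known from light-regulated promoters, and the site II element (TGGGCC) from promoters of ribosomal protein genes. The 250 bases before the annotated start are given from RefSeq TAIR10.1, with these letters on either strand in capitals. The windows are chr5:15382072-15382321 (minus strand) for RBCS2B, chr5:507245-507494 (minus strand) for MT2B, chr4:13595253-13595502 (minus strand) for AT4G27090.
RBCS2B: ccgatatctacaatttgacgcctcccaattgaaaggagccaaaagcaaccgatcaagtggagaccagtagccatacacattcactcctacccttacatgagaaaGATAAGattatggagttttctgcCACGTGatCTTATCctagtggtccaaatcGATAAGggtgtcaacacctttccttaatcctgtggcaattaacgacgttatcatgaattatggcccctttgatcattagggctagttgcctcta
MT2B: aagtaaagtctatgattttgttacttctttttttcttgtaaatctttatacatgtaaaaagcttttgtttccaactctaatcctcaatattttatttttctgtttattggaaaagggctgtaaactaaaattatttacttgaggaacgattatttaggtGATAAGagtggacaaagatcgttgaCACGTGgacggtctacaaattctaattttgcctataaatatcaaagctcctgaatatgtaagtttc
AT4G27090: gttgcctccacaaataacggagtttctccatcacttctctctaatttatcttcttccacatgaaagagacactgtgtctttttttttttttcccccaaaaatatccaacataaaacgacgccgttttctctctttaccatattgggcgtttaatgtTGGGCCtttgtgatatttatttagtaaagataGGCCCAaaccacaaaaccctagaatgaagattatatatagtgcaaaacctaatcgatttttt
RBCS2B holds 1 G-box and 3 I-boxes, MT2B holds 1 of each, and AT4G27090, the L14 gene, holds 2 site II elements, 1 on each strand. None of the marked runs overlaps another in these windows.

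Over all 24387 protein-coding genes with a full window, 7.004% held a G-box, 12.4% an I-box and 14.8% a site II element. Among the 100 most abundant genes the shares were 18%, 23% and 18%. For the 93 antenna, photosystem and Rubisco small subunit genes with a window they were 19.4%, 23.7% and 21.5%, and for the 364 ribosomal protein genes 3.57%, 13.5% and 45.3%. For the 1714 protein-coding genes with no count they were 4.61%, 12.5% and 6.77%. Of these sets, the ribosomal protein genes had the highest share with site II and the photosynthesis set the highest with a G-box, as shares with no test. The letters TATAAA, searched in the same way, preceded 46.8% of all genes and 51.5% of those with no count. RBCS1A, CAB1 and RBCS3B held none of the 3 elements, which says only that these letters are not in this window.

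Genes with no count in any of the 3 libraries numbered 2623, 9.56% of those listed. Every listed gene has a count in at least 1 of the 12 libraries, so each of these was seen in some mutant library, and genes seen in no library are not analysed here. A count of 0 allows up to 3 counts, or 0.0376 to 0.0415 CPM per library, for counting error only. Of these genes, 1119 had a count in only 1 of the other 9 libraries, and the median summed count over those 9 was 9. At least 50% of them thus held no more than 9 counts in all outside wild type. Single zeros were weaker still: 389 genes were at 0 in 1 wild-type library with at least 10 counts in both others, and in 21 of these the others held at least 50.

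Detection was uneven between gene types. No count was found for 7.03% of protein-coding genes, 32.98% of long non-coding RNAs, 23.6% of microRNA precursors, 65.6% of tRNAs and 45.1% of small nuclear RNAs. How well these mRNA libraries capture RNAs other than mRNA was not tested, so the shares do not show that such genes are off. The 1714 protein-coding genes without a count had shorter and simpler models than the rest. Their median transcript was 954 bases with 2 exons, against 1616 bases with 4 exons over all. More than 1 transcript was annotated for 15.5% of them, against 43.02%, and 20.9% had an uncharacterized product, against 9.87%. The 100 most abundant genes had a median of 1207 bases and no uncharacterized product.

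Several families, some of them tied to reproduction, had a large share of genes with no count. Among homologues of the self-incompatibility proteins of poppy, 12 of 16 had none, and among ECA1 gametogenesis-related peptides 8 of 12 had none and all 12 were under 1 TPM. Defensin-like and small cysteine-rich peptides had no count for 23 of 66, and MADS-box factors, some of which specify floral organs, for 27 of 97. F-box proteins, the substrate receptors of SCF ubiquitin ligases, had none for 119 of 378 and RALF signalling peptides for 5 of 20. These shares run from 25% to 75%, beside 7.03% of all protein-coding genes. Genes annotated for pollen by name lay nearer to that level, at 4 of 31.

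Other regulatory families were mostly detected. WRKY factors had no count for 4 of 68 genes, MYB for 15 of 141, bHLH for 12 of 129, NAC for 10 of 94 and AP2/ERF for 14 of 109. Receptor-like kinases (9 of 310), NBS-LRR resistance proteins (4 of 153), auxin-responsive SAUR genes (3 of 77) and PPR proteins of organelle RNA processing (4 of 254) lay under the share of all protein-coding genes. Detected did not mean abundant. Median levels were 1.76 TPM for AP2/ERF, 3.57 TPM for WRKY and 5.88 TPM for bHLH, against 8.64 TPM over protein-coding genes and 223 TPM for ribosomal proteins. Among cytochrome P450 genes, where 26 of 228 had no count, the highest was CYP83A1 of glucosinolate synthesis at a mean of 135 TPM.

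Marker genes of leaf, surface and root were all detected. All 10 markers of the stomatal lineage averaged 1 TPM or more, among them SPCH, which starts the lineage, at 9.38, 10.2 and 9.28 TPM and TMM, a receptor of stomatal patterning, at 24.98, 17.9 and 19.4 TPM. All 5 epidermis markers did too, led by PDF1 at 299, 265 and 284 TPM. Of the root genes, CASP1, a scaffold protein of the Casparian strip in the endodermis, was at 26.2, 29.5 and 19.5 TPM, and PRP3, a wall protein of root hairs, at 17.8, 11.002 and 7.69 TPM. The 6 markers of the root tip and cap all averaged under 1 TPM, and WOX5, of the root stem cell niche, had 29, 0 and 29 counts. In the shoot meristem KNAT1 was at 10.9, 8.03 and 8.75 TPM and STM, which keeps the meristem undifferentiated, at 4.47, 3.24 and 4.54 TPM, while WUS had no count and CLV3 had 0, 7 and 17 counts.

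Markers of seeds, pollen and flowers were mostly at or near 0, with exceptions. Of 12 seed storage and oil body genes, CRU2, CRU3, SESA1, SESA2 and SESA3 had no count, and the oleosin OLEO4 was the only one to average 1 TPM or more, at 5.32, 4.74 and 5.89 TPM. EM1 of the seed LEA genes, LEC1 of the embryo genes, AMS of the anther genes and EC1.2 of the egg cell had none. Of 12 pollen genes VGD1, PPME1, MGH3 and DUO1 had none, while TUB9, a beta-tubulin, was at 48.9, 49.05 and 42.9 TPM. Of 12 floral organ identity genes AP1, SEP2 and STK had no count, while SEP3 was at 9.19, 12.1 and 7.90 TPM. TPD1 of the anther list was at 23.1, 27.8 and 28.7 TPM. SAG12, a cysteine protease of leaf senescence, had no count, and NAP, a senescence-linked NAC factor, was at 46.3, 46.3 and 53.7 TPM. The seed storage list summed to 5.82, 6.05 and 6.83 TPM and the floral list to 12.3, 16.98 and 10.3 TPM.

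Root and vascular markers were lower in replicate 3. The xylem list summed to 71.3, 56.6 and 32.95 TPM in replicates 1, 2 and 3, with 6 of 6 members lowest in replicate 3. The endodermis list summed to 94.1, 99.4 and 71.2 TPM, with 6 of 6 lowest there, and the root hair list to 31.9, 29.7 and 17.01 TPM, with 5 of 6. XCP2, a protease of xylem vessels, went from 40.6 TPM in replicate 1 to 18.7 TPM in replicate 3. The phloem list summed to 103, 95.1 and 81.1 TPM and the stele list to 72.7, 63.7 and 49.9 TPM. The mesophyll list summed to 46579, 46886 and 48798 TPM, highest in replicate 3 through RBCS1A and CAB1, and 2 of its 6 members were highest there. LHCB2.1, an antenna gene, went from 2754 TPM in replicate 1 to 2508 TPM in replicate 3, and GLDP1, the glycine decarboxylase P-protein, from 1003 to 767 TPM. The root tip list was not lowest there, at 3.40, 2.42 and 3.17 TPM. The lower aquaporin and peroxidase shares and the higher antenna share of replicate 3 moved with these sums. The part of tissue content in them was not tested.

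Gene by gene, most levels were close between the libraries. Spread was taken as the CV of CPM over the 15129 genes that averaged 5 CPM or more. The median CV was 8.24%, the quartiles were 5.04% and 13.02%, and 60.9% of genes had a CV under 0.1. Counting alone would give a median of 2.31% if each count were an independent fragment, and 4.62% if 4 counts made 1 fragment. The common biological coefficient of variation from edgeR was 0.182 in wild type, beside 0.182 in pnet2_ac and 0.162 in pnet2_bc. It was taken over 20920, 21242 and 21131 genes, which reach lower counts than the 15129, so it is not on the same genes as the median CV. Among families, the median CV was 0.0451 for the Calvin cycle, 0.0514 for the photosystem group, 0.0686 for ribosomal proteins and 0.0718 for the antenna. It was 0.145 for lipid transfer proteins and 0.177 for class III peroxidases. None of the 155 photosynthesis genes measured reached a CV of 0.5.

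**Figure D4:**
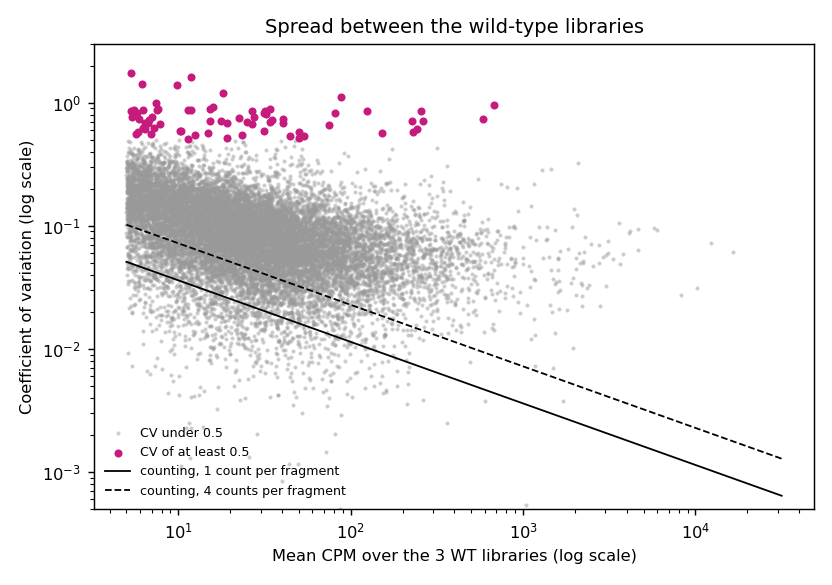
CV between the 3 wild-type libraries against mean CPM, both on log axes, for 15129 genes. Lines give the CV of counting alone for 1 and for 4 counts per fragment, and the 69 coloured genes at a CV of at least 0.5 lie above both lines.

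A CV of at least 0.5 was found for 69 genes, 0.456% of those measured. The spread chose these genes, so it is given as a description. Just inside the threshold were NET4B at 20.7, 59.8 and 70.1 CPM (CV 0.52) and AT2G42330 at 17.6, 10.5 and 6.04 CPM (CV 0.51). Just outside were AT3G25030 at 4.40, 11.5 and 6.32 CPM (CV 0.498) and AT5G50665 at 4.43, 13.8 and 11.9 CPM (CV 0.494). For each gene, the library farthest from the median of the 3 was taken on a log scale. It was replicate 1 for 21 genes, replicate 2 for 22 and replicate 3 for 26, so each library contributed. With replicate 1, 2 or 3 left out, 83, 111 and 73 genes reached the threshold, of which 41, 44 and 37 were among the 69. At the milder CV of 0.3 there were 353 genes, and replicate 3 was the lowest library for 185 of them, against 87 for replicate 1 and 81 for replicate 2.

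Several of these genes stood at either a high or a low level in each library. NFS1, the mitochondrial cysteine desulfurase that provides sulfur for iron-sulfur clusters, was at 122, 115 and 4.60 CPM in wild type. It was at 4.75, 7.28 and 121 CPM in pnet2_ac and 121, 7.06 and 8.53 CPM in pnet2_bc, so each genotype had libraries near both levels. LOS1, an elongation factor 2 of translation, was at 368, 1077 and 305 CPM in wild type, 1275, 1233 and 368 CPM in pnet2_ac and 364, 1109 and 367 CPM in pnet2_bc, again near one of 2 levels. GT72B1, a glycosyltransferase, was at 50.03, 45.03 and 2.34 CPM in wild type and 4.08, 58.4 and 54.6 CPM in pnet2_bc. AT1G49500, annotated as like a TFIID subunit, was at 0.965, 182 and 189 CPM in wild type and 0.713, 145 and 0.471 CPM in pnet2_bc. For NFS1 and GT72B1 the low libraries did not keep to 1 replicate number across genotypes. LOS1 was near its low level in replicate 3 of wild type, pnet2_ac and pnet2_bc, at 305, 368 and 367 CPM. AT1G49500 was near 0 in replicate 1 of each, at 0.965, 0.494 and 0.713 CPM, and also in replicate 3 of pnet2_bc, at 0.471 CPM. In pnet2_abc AT1G49500 was near 0 in replicate 2 instead, at 51.9, 1.17 and 34.8 CPM. LOS1 was at 1244, 1284 and 426 CPM in pnet2_abc, again lowest in replicate 3. Whether replicate number plays a part was not tested.

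**Figure D5:**
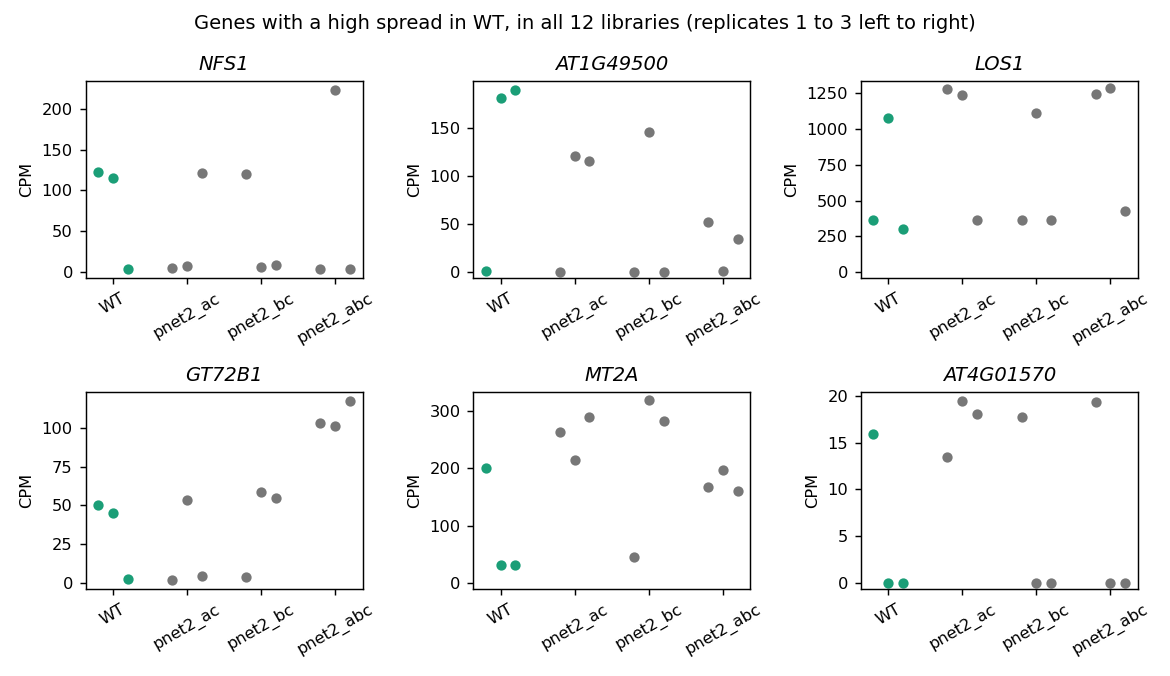
CPM of 6 genes of high spread in wild type (green) and the 3 mutant genotypes (grey), with replicates 1 to 3 from left to right and each genotype scaled over its own 3 libraries. NFS1 sits at 122, 115 and 4.60 CPM in wild type, and its pnet2_ac and pnet2_bc libraries also fall near a high or a low value.

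For part of the 69 genes the spread came back in the pnet2_ac and pnet2_bc libraries, which did not choose them. Of the 69, 60 had a mean of at least 5 CPM in pnet2_ac, and 29 of these (48.3%) had a CV of at least 0.5 there, beside 0.723% of all genes measured in pnet2_ac. In pnet2_bc it was 23 of 57 (40.4%), beside 0.453%. The shared genes were 26.1% of the 111 such genes of pnet2_ac and 33.3% of the 69 of pnet2_bc. By a steeper measure, 36 genes had a wild-type library under 0.2 times the highest. Of those with a mean of at least 5 CPM, 13 of 30 met it in pnet2_ac, beside 0.28% of all, and 13 of 27 in pnet2_bc, beside 0.204%. The 12 genes at a CV of at least 0.5 in wild type, pnet2_ac and pnet2_bc were AT1G25175, RAP2.12, AT1G49500, AT1G07940, AT2G43780, NFS1, GT72B1, LOS1, AT1G33590, AT3G22235, CCH and GSTF6. Spread in pnet2_abc was not counted. Of these 12, NFS1 was at 4.18, 223 and 3.59 CPM there and AT1G49500 at 51.9, 1.17 and 34.8 CPM. Others were closer together there, such as RAP2.12 at 81.7, 80.3 and 65.1 CPM and CCH at 473, 516 and 456 CPM. Each value is a whole-gene count, in which isoforms are not separated.

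The list mixed regulators, stress genes and basic machinery. MT2A, a metallothionein, was at 200.5, 31.8 and 31.5 CPM, high in replicate 1. RAP2.12, an ethylene response factor of oxygen sensing, was at 67.2, 9.02 and 25.5 CPM, and MBF1C, a transcriptional coactivator of the heat response, at 46.9, 1.66 and 45.3 CPM, low in replicate 2. CCH, a copper chaperone, was at 342, 81.2 and 268 CPM, also lowest in replicate 2. Basic machinery was represented by EIF4A1, an RNA helicase of translation initiation, at 413, 158 and 153 CPM, and smB, a core protein of the spliceosome, at 42.9, 8.24 and 3.11 CPM. Both were highest in replicate 1. Zeros occurred among them: AT4G01570, a tetratricopeptide repeat protein, was at 15.9 CPM in replicate 1 with no count in the other two, and SLP2, a calcineurin-like phosphatase, was at 0, 18.4 and 15.9 CPM.

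Gene models with several transcripts were common among the 69 genes: 53 (76.8%) had more than 1, beside 50.4% of all genes measured. Overlap of over 300 bases with a gene on the opposite strand was found for 10 (14.5%), beside 9.73%. An alignment of at least 150 bases to another listed transcript, with 95% identity or more over the whole alignment, was found for 14 (20.3%), beside 3.10%. The part of isoforms, overlapping genes and shared sequence in the spread was not tested. The level of a gene and its matches is also given as a sum, and a sum with a steadier or more abundant gene has a lower CV in any case.

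In 9 of these 14 genes with a near copy the match lies elsewhere on the genome. AT5G50650, a WD40 repeat protein, was at 8.92, 0 and 9.69 CPM, and AT5G50550, identical over all 1673 bases, at 10.11, 11.7 and 10.5 CPM. SPL13B, a squamosa promoter-binding factor, was at 8.38, 0 and 8.17 CPM, and SPL13A, identical over 1817 bases, at 9.50, 11.8 and 9.38 CPM. Both sums were still lowest in replicate 2, at 19.03, 11.7 and 20.2 CPM and 17.9, 11.8 and 17.5 CPM. AT4G09310 was at 12.6, 10.2 and 0 CPM and its copy AT4G09200 at 13.003, 10.6 and 20.1 CPM, so that the sum was 25.6, 20.7 and 20.1 CPM. LpxC2 and AT1G25175 share sequence with each other and with AT1G25098. LpxC2 was at 28.8, 18.8 and 0 CPM and AT1G25175 at 0.113, 3.78 and 25.6 CPM, one falling to 0 where the other was highest, while the 3 loci summed to 140.0, 165 and 162 CPM. AT1G07940, an elongation factor 1-alpha gene, was at 511, 132 and 127 CPM, and it summed with AT1G07920 and AT1G07930 to 1446, 1055 and 1086 CPM. AT3G22235 kept its spread when summed with PCC1, at 8.36, 18.1 and 4.76 CPM and a CV of 0.663, beside 0.675 alone. Levels of such genes are uncertain one by one.

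In the other 5 the match is an overlapping gene on the same strand. MIR2936, a microRNA precursor, had the second highest CV, at 0.676, 33.8 and 0.858 CPM. Its 180 bases (chromosome 4, 1046804-1046983, TAIR10.1, minus strand) lie within SAG21, a mitochondrial LEA-type protein gene of senescence and stress, at bases 102 to 281 of the longest transcript. SAG21 was at 59.7, 22.2 and 79.5 CPM, lowest where MIR2936 was high, and the sum was 60.4, 56.01 and 80.3 CPM. PRA1.F4 was at 9.39, 0.429 and 6.18 CPM and the overlapping AT3G13700 at 0.764, 11.7 and 1.64 CPM, again with the high library of one at the low library of the other. The sum of AT3G05935 with AT3G05932 was 5.27, 23.03 and 9.89 CPM, with a CV of 0.72, and that of NET4B with AT2G30505 was 22.6, 61.7 and 71.4 CPM, with a CV of 0.497, so both kept a spread near or above the threshold. AT3G05935 also has 499 bases opposite another gene, as LpxC2 has 1982.

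Other genes varied with no such match listed. GRP3S, a glycine-rich protein, was at 285, 318 and 1443 CPM, and GRP-3 at 479, 157 and 151 CPM. AT4G21620, another glycine-rich protein, was at 47.2, 0.470 and 48.4 CPM, and AT5G46730 at 28.7, 1.73 and 15.5 CPM. GRP3S was high in replicate 3 and GRP-3 in replicate 1, while AT4G21620 and AT5G46730 were low in replicate 2. Of the 69 genes, 8 averaged 5 CPM or more in both double mutants and had a CV under 0.3 in both. Among them were AT4G21620, AT5G46730, EMB93, AT4G14990 and ICS2, an isochorismate synthase of salicylic acid formation (3.55, 4.18 and 11.4 CPM in wild type). Whether spread differs between genotypes was not tested.

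Some of the most variable genes were highest in replicate 3. IPS1, a non-coding RNA induced when phosphate is short, was at 9.51, 16.3 and 41.5 CPM. PEPC1, annotated as a phosphatase, was at 13.7, 7.08 and 23.96 CPM and MGDC, a galactolipid synthase, at 7.53, 2.84 and 10.4 CPM. Genes of other kinds were highest there too. Among them were RMA1, a RING membrane-anchor protein, at 3.12, 3.11 and 15.97 CPM and the resistance gene AT1G59218 at 15.6, 11.9 and 53.1 CPM. AT5G17820, a class III peroxidase at 41.8, 31.4 and 6.69 CPM, went the other way and was lowest there, like the xylem and root hair sums.

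Most of 15 genes in common use as references for normalization were even. ACT2, an actin, was at 632, 655 and 671 CPM (CV 2.99%), the elongation factor gene EF1A (AT5G60390) at 1617, 1541 and 1624 CPM (2.88%), GAPC1 of glycolysis at 703, 736 and 688 CPM (3.46%) and TUB2, a tubulin, at 201, 200.3 and 188 CPM (3.81%). ACT7, UBC9, TUB6 and ACT8 had CVs of 4.75% to 6.25%, and SAND, AT4G26410, TIP41-like, UBC21, PP2AA3 and CBP20 of 8.20% to 13.01%. The exception was UBQ10, a polyubiquitin gene, at 246, 179 and 99.5 CPM, a CV of 41.9%, higher than that of 99.2% of genes. In libraries not used to see this, its CV was 37.2% in pnet2_ac and 52.7% in pnet2_bc, while that of ACT2 was 3.48% and 3.33%. Ubiquitin, tubulin and elongation factor genes have paralogs. The search for near copies, at 150 bases and 95% identity, listed none for UBQ10, UBC9, TUB2, TUB6 or EF1A. Each alignment was judged as a whole, so a similar stretch inside a longer, less similar alignment was not counted. No near copy was listed for RBCS1B, whose coding sequence shares 531 of 546 bases with that of RBCS2B. Shorter or less similar stretches were not counted either, so levels one by one remain uncertain.

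The 10 genes of lowest CV were AT1G52360, GOX2, ZFN3, FRS9, IM, AT3G18600, AT1G66510, CYCD1;1, CYP71B2 and emb1027. AT1G52360, a coatomer subunit of vesicle transport, was at 86.9, 86.9 and 86.99 CPM, and GOX2, a glycolate oxidase, at 1040.5, 1040.5 and 1041 CPM. Their CVs of 0.0502% to 0.202% are under the 0.354% to 3.54% that counting alone gives at their levels, so their order among the evenest genes cannot be read from 3 libraries.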

How the data were processed

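Counts per gene and TPM were deposited by the authors for 12 mRNA-seq libraries, and the 3 labelled wild type were used, with every level read from their columns. The submitters' processing notes name TAIR10, HISAT2 2.0.4 and HTSeq 0.6.1p1, with no settings. The deposited TPM are labelled kallisto, a further program, and which program made the counts is not settled here. The deposited TPM equals the deposited count divided by the length of the longest transcript and rescaled, within 0.1% for all 19093 genes compared, so the tables are not independent and a gene with a long annotated isoform has a low TPM. Names, types and sequences came from RefSeq TAIR10.1, joined by gene ID for 27173 of 27436 genes; the other 263 are organelle genes.

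Levels between genes were compared in TPM, and libraries in CPM on TMM-adjusted sizes, each genotype scaled over its own 3 libraries (R 4.3.3, edgeR 4.0.16, Python 3.11.15). Spread was the CV over genes averaging 5 CPM or more, with 0.5 as the threshold. The script was tested on simulated data. The labels do not say whether replicates came from separate cultures, so their spread may be technical. Families were assigned by symbol and product name, first match in a fixed order; cytosolic and organelle ribosomal proteins were merged because product names do not separate them, and wrongly matched members were removed by name after values had been seen. Near copies share an alignment of at least 150 bases, with at least 95% identity over the whole alignment. Named genes are the 30 highest in mean TPM, the 3 leaders of the 12 largest families, silent markers, the 30 highest and the 10 lowest CVs, and 15 reference genes; other named genes were chosen after their values were seen. The members and lists were chosen with earlier results of these data known. FIS2, MYB118, A7, MS1, INO and SPL of the marker lists are not analysed here. The alternatives tried were other length scaling, other library scaling, other filters, an SD of log2(TPM + pseudocount) in place of the CV, and leaving out each library.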

Additional observations from a re-analysis of the deposited data

How the results depend on the processing

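No paired analysis was possible because wild type is 1 group and no result comes from a test. Dividing counts by annotated exon length, or leaving out organelle genes, moved the concentration of the pool by less than its SD. Counts not divided by length took 906 genes to reach 50% of the pool and put 7.65% of the pool in the top 10 genes, 23.6% in the top 100 and 21.3% in photosynthesis, since short transcripts then weigh less, and moved 11 of the 12 largest family shares by more than their SD. Leaving out each library in turn gave 606.5 to 639 genes for 50% of the pool, 9.03 to 9.41% and 26.3 to 26.9% in the top 10 and 100, 24.2 to 24.8% in photosynthesis, 2991 to 3239 genes with no count, 73 to 111 variable genes and a biological coefficient of variation of 0.176 to 0.196. Genes with under 10 counts summed numbered 4076, and those with no count among protein-coding genes, an alternative added after seeing the data, 1714. Genes at the CV threshold numbered 353 with a minimum of 1 CPM, 31 with 20 CPM, 4406 with no filter, where the fewest counts weigh most, and 16 among genes with 1 annotated transcript, also added later. Library size alone, DESeq2 size factors and deposited TPM gave 70, 69 and 70, and the SD of log2(TPM + 1) and log2(TPM + 0.1) 85 and 99. With no filter the biological coefficient of variation was 0.248. At 5 CPM the depth gives a counting CV well under the threshold, while genes near the floor cannot be called silent from 3 libraries.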

Other observations

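Some genes without a count in wild type were abundant in every pnet2_abc library. Those with no count in wild type and over 1000 counts summed over the other 9 libraries numbered 15. AT3G29970, annotated as a B12D protein, had 6227, 6900 and 5729 counts in pnet2_abc and 2, 0 and 5 in pnet2_ac. AT1G70390, an F-box protein, had 2280, 2216 and 2260 counts in pnet2_abc, and XTH11, a xyloglucan endotransglucosylase of the cell wall, had 1521, 1491 and 1869.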
